A study of Schizosaccharomyces pombe with 5 samples.

Results

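Vegetative growth was set against G0 arrest in fission yeast, Schizosaccharomyces pombe, on 1 cDNA array with 2 dyes. All spots of that array whose annotation names 1 gene were used, and repeated spots of a gene were averaged. This gave 4765 genes a value, of 4797 genes measured on at least 1 of the 5 arrays of the series. Another 54 genes were spotted but had no value on this array.

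The strain was L972, a heterothallic h minus strain, which is M in mating type and cannot mate with itself. Vegetative cells (Cy5 dye) grew logarithmically at 26 °C in EMM2, a synthetic minimal medium with ammonium as nitrogen source. G0 cells (Cy3 dye) came from such a culture and were kept for 48 h at 26 °C in the same medium without nitrogen, where they divided before they stopped. The other 4 arrays set cells at 1, 2, 3.5 and 6 h after nitrogen came back with fresh medium against G0 cells in the same way. The G0 culture was also denser than the vegetative one, so the effects of nitrogen, cell density and time in culture cannot be told apart. Dyes were not swapped, so dye and growth state cannot be told apart either. Each condition had 1 array, so no difference given here has a replicate check and no test was possible. The labels mention Northern blots on 56 genes, with 35 cases given as consistent, and those blots were not used here.

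As background, fission yeast cells that run out of nitrogen divide without growing, stop in G1 with unreplicated DNA, and either mate or, when no partner is at hand, enter a resting state called G0. In that state they take apart their own proteins and organelles by autophagy to regain nitrogen, make few ribosomes, and resist stress. Cells in rich nitrogen devote much of their RNA to ribosomes, pass most of the cycle in G2, and keep the mating program silent through the TOR and cAMP pathways.

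A gene's value is its log2 ratio, the logarithm of its Cy5 over its Cy3 signal, so that 1 stands for a 2-fold higher and -1 for a 2-fold lower level in vegetative than in G0 cells. The deposited table does not state the base of its logarithm, and base 2 is an assumption. Polyadenylated RNA was purified from each culture before labelling, and the ratios say nothing of the RNA content per cell. Fewer cells with an RNA and less of that RNA per cell cannot be told apart in these bulk samples.

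The SD between repeated spots was smaller than the 2-fold limit, but 1 single spot lay further than that limit from the other spots of its gene. The cyclin-dependent kinase gene cdc2 had a log2 ratio of 0.26 ± 0.20 (SD, 16 spots), and nuc1, which encodes the largest subunit of RNA polymerase I, had 0.79 ± 0.20 (SD, 16 spots). The beta-tubulin gene nda3 had 1.00 ± 0.39 (SD, 16 spots), because 1 of its spots lay at -0.39, and 1.10 ± 0.13 (SD, 15 spots) without it. The pooled SD was 0.28 over these 3 genes, or 0.18 without that spot, and 0.38 over 12 unnamed positions repeated in every block. Medians of the 16 printed blocks ran between -0.14 and 0.34, so a value near the 2-fold limit can depend on where its spot was printed. For 4761 of the genes there was 1 spot and hence no error of their own.

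Of the 4765 genes, 753 (15.8%) were at least 2-fold higher and 696 (14.6%) at least 2-fold lower in vegetative than in G0 cells, and 3316 (69.6%) lay within 2-fold. The gene median was 0.09, with quartiles of -0.56 and 0.67. Centred on that median the counts turned to 655 higher and 777 lower, and with each printed block centred they were 628 and 776, so which direction was the more frequent depended on the scaling. The lower side reached further than the higher side. At least 4-fold higher were 140 genes and 4-fold lower 211, and log2 ratios of 3 or more in size were found for 17 higher and 71 lower genes. No gene had a log2 ratio of 5 or more, whereas 13 genes had -5 or less. Many genes sat at the limit itself, 103 with log2 ratios of 1.0 to 1.1 and 86 of 0.9 to 1.0.

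**Figure D1:**
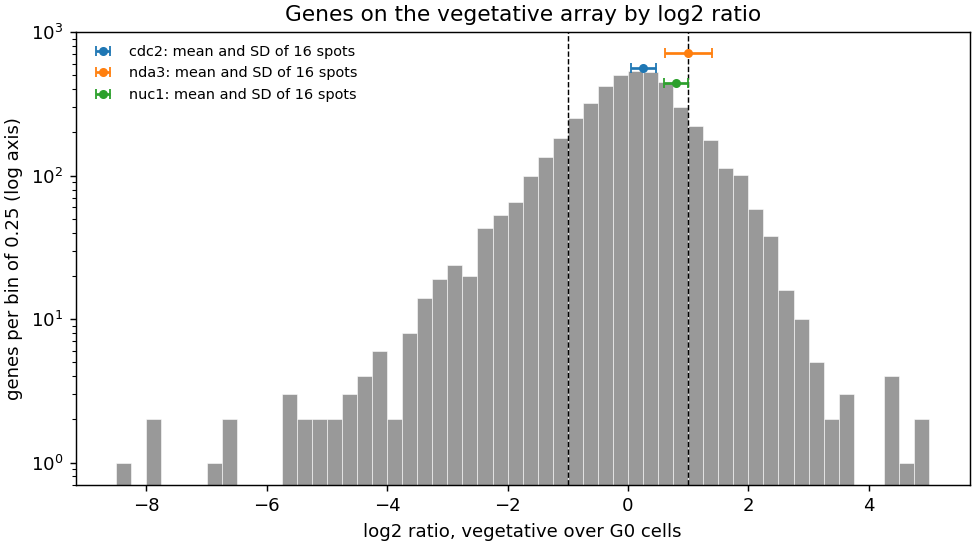
Number of genes per bin of 0.25 (log axis) by log2 ratio of vegetative over G0 cells, for 4765 genes, with dashed lines at the 2-fold limits and, at heights chosen only for legibility, the mean and SD of the 16 spots of cdc2, nda3 and nuc1. The lower tail ends at -8.36 and the higher tail at 4.80.

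Genes for the cytosolic ribosome were higher in vegetative cells in the great majority. Of 79 genes for large subunit proteins, 73 were at least 2-fold higher and 0 lower (median log2 ratio 1.87), and of 44 for small subunit proteins, 42 were higher and 0 lower (median 1.93). Across all genes the shares were 15.8% and 14.6%, and the median 0.09. The highest were the paralogs rps102 and rps101, at 2.92 and 2.88, and rpl101, at 2.46. Such paralogs may share signal on cDNA spots, so that their separate values are uncertain. The 8 members within the limit included rpl501 at -0.77, rpp40 at -0.38, rpl1202 at -0.08 and rps7 at -0.07, all 4 below G0 while their families were above it. For rpl501 the time course arrays gave -2.79, -3.44, -1.80 and -1.29 at 1, 2, 3.5 and 6 h, so this spot lay below G0 on all 5 arrays. rps7 stood at -2.64, -2.13, -0.48 and -0.03 at those times.

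The factors that assemble ribosomes stood less high than the ribosomal proteins themselves. Of 111 assembly genes, 34 were at least 2-fold higher and 1 was lower (median 0.71), against 15.8% and 14.6% of all genes. The snoRNP genes fib1, which encodes fibrillarin, and nop58 led them at 2.31 and 2.06, and rrp1 was the exception at -1.53. The assembly list had medians of 2.67, 2.46, 1.56 and 0.71 at 1, 2, 3.5 and 6 h, so its vegetative level lay far under the first times and at that of 6 h. The ribosomal protein medians of the large subunit, in contrast, were 2.17, 2.26, 2.58 and 2.17 at those times. RNA polymerase I and III genes had 10 of 33 higher and 1 lower (median 0.66), with the polymerase I subunit gene ker1 at 2.70 and brf1, a polymerase III initiation factor gene, at -1.78. Translation factors had 24 of 41 higher and 0 lower (median 1.27), with the initiation factor gene tif11 at 2.66. The kinase gene gcn2, whose product slows initiation when amino acids are short, lay at -0.999, just within the limit. Mitochondrial ribosomal protein genes had 12 of 46 higher and 1 lower (median 0.67), with mrpl19 at 1.75 and mrp20 at -1.16.

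Pathways that make amino acids differed from one another (all genes: 15.8% higher, 14.6% lower). All 8 genes of branched-chain synthesis were at least 2-fold higher (median 1.31; 7 of 8 with each block centred), in a narrow range of 1.16 to 1.72, with ilv3 on top. Of 7 lysine genes 4 were higher and 0 lower (median 1.69), with lys12, the homoisocitrate dehydrogenase gene, at 2.33. Of 16 histidine and aromatic genes 5 were higher and 0 lower (median 0.44), with his2 at 1.95. Arginine and proline genes had no common direction, with 2 of 12 higher and 1 lower (median -0.22), or 1 higher and 3 lower with each block centred. The proline gene pro3 lay at 1.48 and the arginine gene arg12 at -1.02. Sulfur amino acid genes held the largest single values. Of 18 members 10 were higher and 0 lower (median 1.04).

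Within the sulfur list, met17, which encodes homocysteine synthase, stood at 4.78, against 5.69, 4.75, 5.99 and 5.76 at 1, 2, 3.5 and 6 h. sam1, the S-adenosylmethionine synthetase gene, stood at 4.31, against 5.07, 4.83, 3.55 and 4.39. Both were thus among the highest genes of every array. met9, the methylenetetrahydrofolate reductase gene, was at 3.34 and met26, the methionine synthase gene, at 2.00. The serine synthesis gene ser3 stood at 4.32, against 3.62, 3.32, 4.73 and 5.02 at those times.

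Nucleotide genes did not share a direction (all genes: 15.8% higher, 14.6% lower). De novo pyrimidine and nucleotide genes had 5 of 10 members higher and 2 lower (median 0.68). ura3, the dihydroorotate dehydrogenase gene, was at 2.14 and dut1, the dUTPase gene, at 1.45, while the thymidylate synthase gene tmp1 was at -1.40 and the dCMP deaminase gene dcd1 at -1.13. Purine synthesis had 4 of 14 higher and 0 lower (median 0.61), led by the IMP dehydrogenase gene gua1 (1.85). Of 9 genes for uptake and salvage of bases and nucleosides, most of them pyrimidines, and of the uracil-regulated group, 7 were at least 2-fold lower and 0 higher (median -1.73). The other members were uap1 at 0.17, which is also counted among the poor nitrogen genes, and the adenine deaminase gene dea2 at 0.72. This list was put together after values were seen, so its count supports nothing. The uracil-regulatable gene urg1 was its lowest member at -5.58, and urh1, a uridine hydrolase gene, lay at -4.00. The uracil permease gene fur4 was at -2.57, against 2.09, 1.73, -1.59 and -2.26 at 1, 2, 3.5 and 6 h, so it was above G0 early and below it later.

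Autophagy genes lay below G0 as a whole. All 32 members with a value had a log2 ratio under 0, and 26 were at least 2-fold lower and 0 higher (median -1.47), against 14.6% of all genes lower. The lowest was atg43 (-3.13), a mitophagy receptor gene. atg4, the gene of the protease that processes Atg8, was at -2.70, atg1802 at -2.67, atg13, a partner of the Atg1 kinase, at -2.51 and epr1 at -2.33. None of these 5 lay near the limit. The medians at 1, 2, 3.5 and 6 h were -1.48, -1.70, -1.59 and -1.43, close to the vegetative median throughout. Of 7 protease and vacuolar hydrolase genes 6 were lower and 0 higher (median -1.27). The serine protease gene isp6 was lowest at -3.72, and the carboxypeptidase gene cpy1 was at -1.91. In contrast 37 of 38 proteasome genes lay within 2-fold (median 0.23), with rpn1301 at 1.06.

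Genes for taking up and using poor nitrogen sources were more often lower than higher, and most of those for using them lay within the limit. Of 16 amino acid and peptide transporter genes 8 were lower and 1 higher (median -0.85), against 14.6% and 15.8% of all genes. The permease gene isp5 was at -4.48, the oligopeptide transporter gene isp4 at -3.74 and the peptide transporter gene ptr2 at -2.35. The exception was the permease gene aat1 at 1.84, which stood at 5.86, 6.48, 4.00 and 2.30 at 1, 2, 3.5 and 6 h and so was lowest in vegetative cells among these 5 arrays. The list of starvation-induced and poor nitrogen genes had 6 of 17 lower and 1 higher (median -0.47). The copper amine oxidase gene cao1 was at -4.00, isp7 at -3.09, the GABA aminotransferase gene uga1 at -2.45, and the ornithine aminotransferase gene car2 at 1.27. For ammonium, the preferred source, 2 of 9 genes were lower and 1 higher (median -0.26), counts near the shares of all genes. The NADP-dependent glutamate dehydrogenase gene gdh1, which fixes ammonium, was at 1.12, while gdh2, which releases it, was at -1.38 and the ammonium transporter gene amt1 at -1.63.

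Mating genes held the lowest values of the array. The M-factor pheromone genes mfm3 and mfm1 had log2 ratios of -8.36 and -7.83 in vegetative cells. At 1, 2, 3.5 and 6 h mfm3 stood at -4.00, -5.90, -6.89 and -6.61 and mfm1 at -3.65, -6.25, -6.21 and -6.23, so both were lowest in vegetative cells. Their near-identical sequences may share signal. mam2, the gene of the receptor for the pheromone of P cells, was at -5.75, and mam1, the M-factor exporter gene, at -3.44. mat1-Mc, the M-type master regulator gene, was at -1.77. Of the 9 M-cell genes 5 were at least 2-fold lower and 0 higher (median -1.77), against 14.6% and 15.8% of all genes. The other members, mam4 (-0.91), sxa2 (-0.48), mat1-Mi (-0.10) and mam3 (0.04), lay within the limit. Among genes of P cells, a type that the strain is not, the array gave map1 at -1.68 and map3, the M-factor receptor gene, at 0.51, and neither mfm2 nor map2 had a value.

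**Figure D2:**
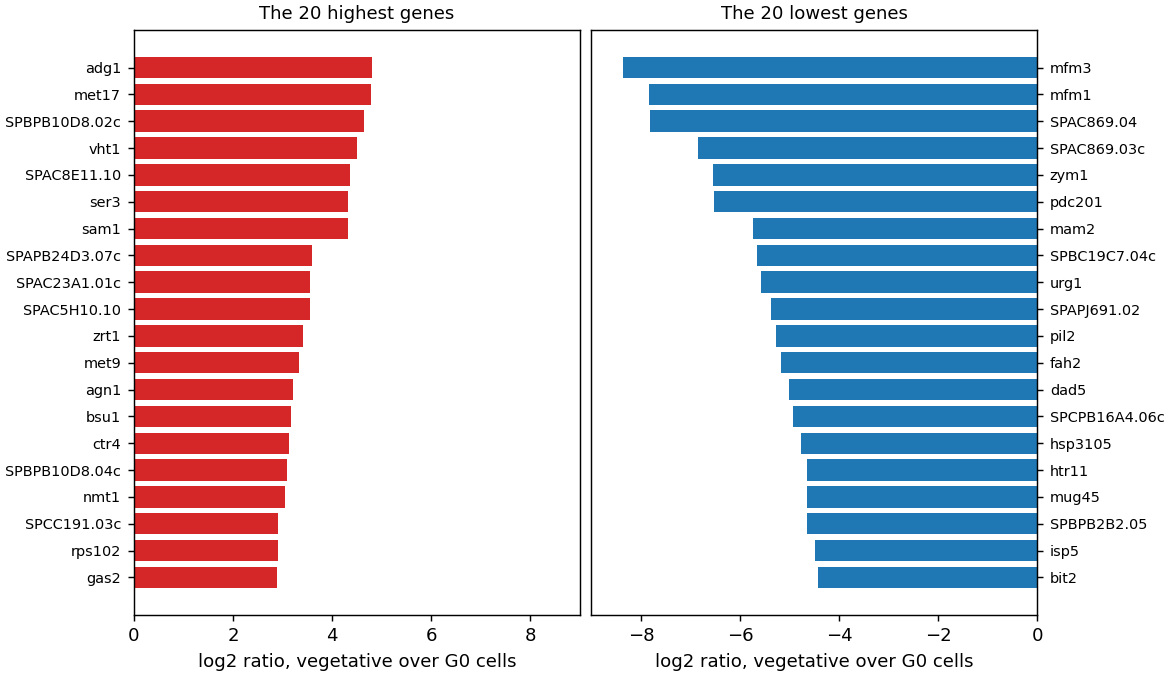
Log2 ratio of vegetative over G0 cells for the 20 highest genes (left, 2.88 to 4.80) and the 20 lowest genes (right, -8.36 to -4.42), each bar 1 gene. The lowest bars, led by the pheromone genes mfm3 and mfm1, are longer than any bar of the highest genes.

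The signalling genes that carry mating and the entry into meiosis were mostly lower too. Of 26 members 14 were at least 2-fold lower and 1 higher (median -1.35), against 14.6% and 15.8% of all genes. The lowest were num1 (-4.03) and spk1 (-3.34), the gene of the pheromone MAP kinase, followed by fus1 (-2.80), a formin gene for cell fusion. ste11, the transcription factor gene that opens the mating program, was at -2.31 and mei2, the RNA-binding switch to meiosis, at -2.48. At 1, 2, 3.5 and 6 h ste11 stood at -1.47, -1.37, -1.08 and -0.55, so its vegetative value lay below all 4. nrd1, whose product holds back differentiation, was the exception at 1.13. The median of this list was -0.27, -0.67, -1.04 and -1.14 at those times.

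Meiotic genes proper were split. Of 156 genes named for meiotic induction or spore formation, 35 were lower and 11 higher, against 14.6% and 15.8% of all genes. The lower share was thus above that of all genes and the higher share under it. The median was 0.09, the same as over all genes, or -0.069 with each block centred. Many carry such names from expression in other studies alone. The lowest was mug45 (-4.64) and the highest mug64 (2.10). A list of 10 meiotic recombination genes, put together after values were seen, had 6 lower and 0 higher (median -1.54). Among them were the linear element genes rec25 (-2.96) and rec10 (-2.18), rec6 (-2.79), and rec8, the meiotic cohesin gene (-2.06). rec12, which encodes the nuclease that starts recombination, was at 0.11.

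Stress genes and chaperones went apart. Of 39 core stress response genes 16 were at least 2-fold lower and 4 higher (median -0.70), against 14.6% and 15.8% of all genes. The metallothionein gene zym1 was at -6.55, lsd90 at -3.44, the trehalase gene ntp1 at -2.48 and the glutathione transferase gene gst3 at -2.41. Against them stood the thioredoxin gene trx1 at 1.81, obr1 at 1.66 and rds1 at 1.55. Cytosolic chaperone genes had 9 of 22 higher and 1 lower (median 0.86), with mas5, an Hsp40 gene, at 1.77, hsp90 at 1.59, and the heat shock transcription factor gene hsf1 at -1.22. Mitochondrial and ER chaperone genes had 7 of 14 higher and 0 lower (median 0.96), with hsp10 at 2.63 and bip1, the ER Hsp70 gene, at 1.89. For hsp10 the values at 1, 2, 3.5 and 6 h were -1.44, -0.96, 2.95 and 2.66, so that vegetative cells resembled the 2 later times and not the 2 earlier ones.

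Glycolysis differed little between vegetative and G0 cells. Of its 12 genes 11 lay within 2-fold (median 0.31), with the hexokinase gene hxk1 at 1.09. At 1, 2, 3.5 and 6 h the median was -2.33, -2.67, -0.56 and 0.18. Most genes of the tricarboxylic acid cycle (17 of 19, median -0.08) and of the respiratory chain and ATP synthase (33 of 40, median 0.38) were also within the limit. The respiratory genes had 4 higher and 3 lower, but 1 and 3 with the array centred. For these counts and those below, the shares of all genes were 15.8% higher, 14.6% lower and 69.6% within 2-fold. The fermentation list held larger changes, with 5 of 11 genes lower and 2 higher (median -0.26), or 4 and 1 with each block centred (median -0.59). pdc201, a pyruvate decarboxylase gene, was at -6.53, against -2.94, -5.31, -5.28 and -5.50 at those times, and the aldehyde dehydrogenase genes atd3 and atd2 were at -4.11 and -3.41. The acetyl-CoA synthetase gene acs1 was at 1.76 and the alcohol dehydrogenase gene adh1 at 1.05. Of 21 glucose-repressed and gluconeogenic genes 8 were lower and 4 higher (median -0.70), or 9 and 2 with the array centred, with the alpha-galactosidase gene mel1 at -3.82, the dihydroxyacetone kinase gene dak2 at -2.76 and the gluconeogenic gene fbp1 at -1.47. The hexose transporter genes had 2 of 8 lower and 0 higher (median -0.82), or 4 lower with each block centred (median -1.01).

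**Figure D3:**
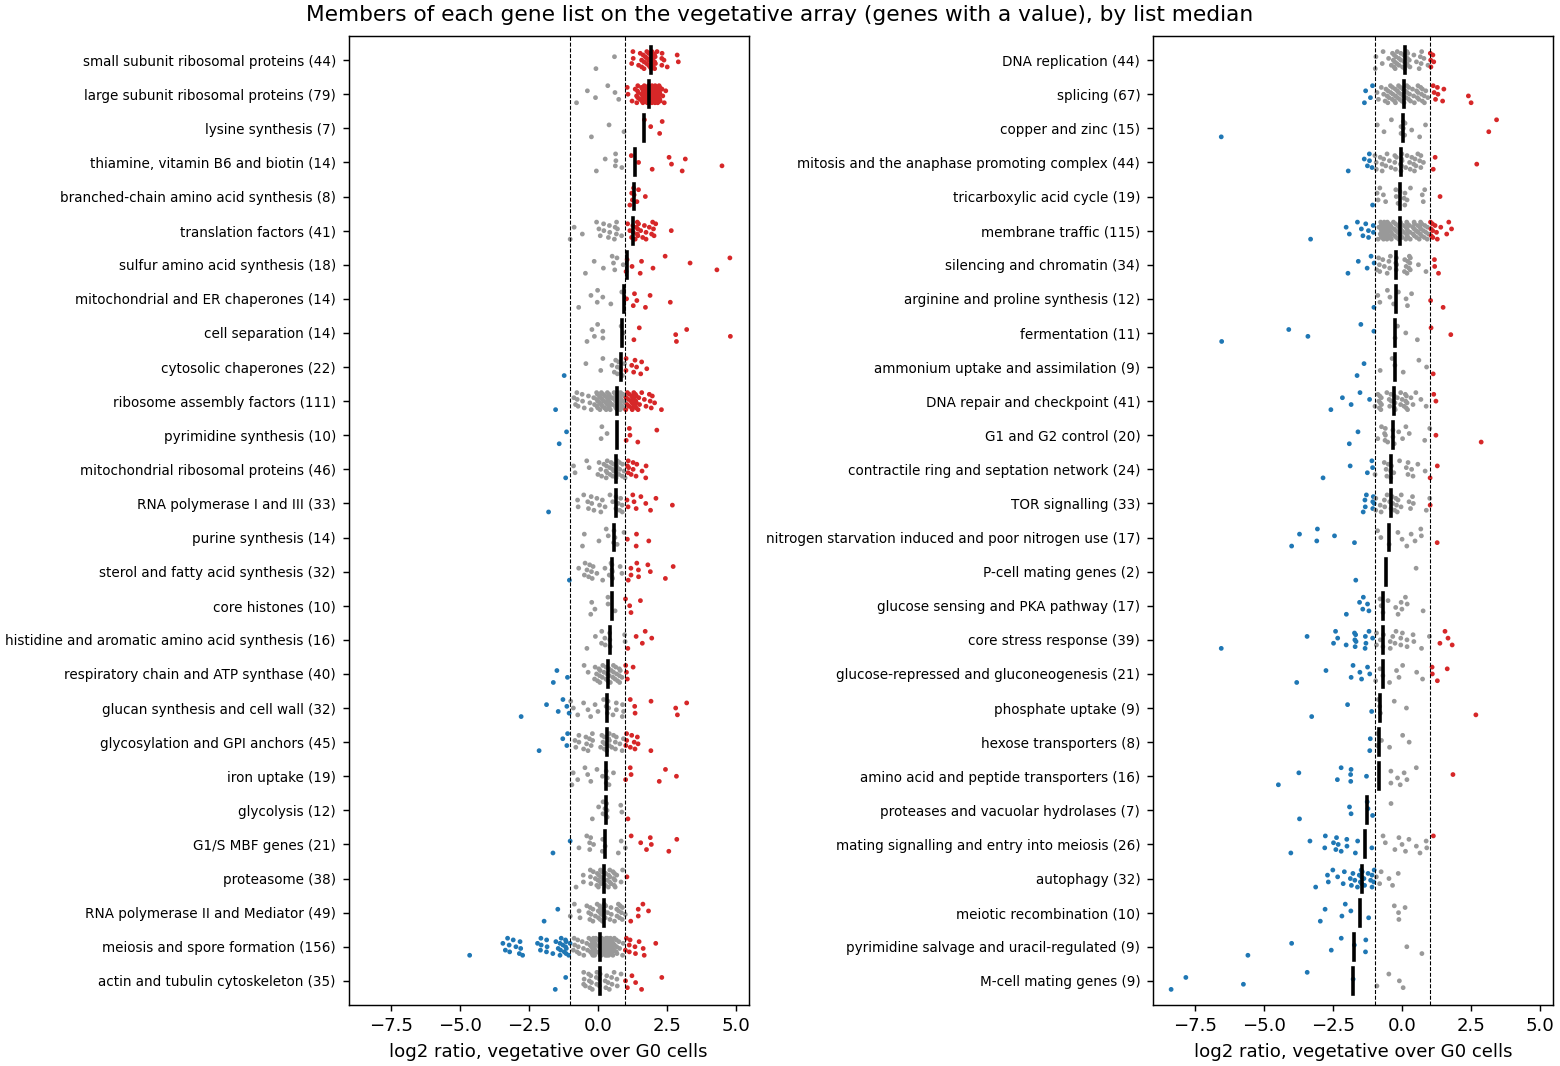
Log2 ratio of vegetative over G0 cells for the members of each gene list (number with a value in parentheses), ordered by median (black bar), with dashed lines at the 2-fold limits; red points are at least 2-fold higher and blue points at least 2-fold lower. Ribosomal protein lists lie at the top with medians of 1.93 and 1.87, and M-cell mating, pyrimidine salvage, meiotic recombination and autophagy lists at the bottom. The pyrimidine salvage and meiotic recombination lists were put together after values were seen, so their places support nothing.

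Cell cycle genes differed by family, and the shares of all genes to read them against are 15.8% higher and 14.6% lower. The list of MBF, the transcription factor complex of the G1 to S transition, holds its target genes and also its subunit and activator genes cdc10, res1, res2 and rep2, listed after their values were seen, which lay between -0.40 and 0.17. It had 7 of 21 higher and 2 lower (median 0.27, or 0.51 among genes with values on all 5 arrays and 0.18 with the array centred). The S-phase cyclin gene cig2 was at 2.86, against -0.04, -0.34, 2.85 and 3.31 at 1, 2, 3.5 and 6 h. tos4 was at 2.57, nrm1, the gene of an MBF corepressor, at 1.94 and the histone gene activator ams2 at 1.90. spd1, which encodes an inhibitor of ribonucleotide reductase, was at -1.62. The core replication genes themselves had 5 of 44 higher and 0 lower (median 0.09), but 2 higher and 2 lower with the array centred (median -0.0085) and 1 and 2 with each block centred (median -0.018), so they had no direction that held. Of 10 histone genes 4 were higher and 0 lower (median 0.50, or 0.23 with each block centred). The H2B gene htb1 was at 1.54 and the H2A variant gene pht1 at 1.004. The H2A genes hta1 and hta2, copies that may share signal, were at 1.20 and 1.16. The H3 genes hht1, hht2 and hht3 lay between -0.25 and -0.10, and the H4 genes hhf1, hhf2 and hhf3 between 0.37 and 0.63.

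Among the regulators of the G1 and G2 stages, 16 of 20 lay within 2-fold, against 69.6% of all genes. Besides cig2, rad24, a 14-3-3 gene, was higher at 1.22. The G1 cyclin gene puc1 was at -1.60 and mcs6, the gene of the CDK-activating kinase, at -1.91. The mitotic cyclin gene cdc13 (-0.33), the inhibitory kinase gene wee1 (-0.33), the phosphatase gene cdc25 (-0.60), the CDK inhibitor gene rum1 (-0.61) and srw1, an activator of cyclin destruction (-0.88), all lay within the limit. Genes of mitosis and the anaphase promoting complex had 3 of 44 higher and 6 lower (median -0.05, or -0.19 with each block centred), against 15.8% and 14.6% of all genes. slp1, the gene of the Cdc20-type activator, was at 2.70, against 1.16, 1.93, 1.42 and 0.87 at 1, 2, 3.5 and 6 h, and the kinesin gene cut7 was at -1.95.

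Genes for the separation of daughter cells had, of the 56 lists, the largest share of members above every time after nitrogen return. Of 14 genes 6 were at least 2-fold above G0 and 0 below (median 0.89), against 15.8% and 14.6% of all genes. The same number, 6 of 14, were at least 2-fold above the highest of the 4 time course arrays, which held for 1.19% of 4708 genes measured on all arrays (56). adg1, a cell surface protein gene, was the highest gene of the array at 4.80, against -0.27, -0.64, -0.27 and -0.82 at 1, 2, 3.5 and 6 h. agn1, the glucanase gene that digests the alpha-glucan around the septum, stood at 3.22, against 2.15, 1.35, 0.12 and -0.01. eng1, the gene of the beta-glucanase that cuts the primary septum, was at 2.82, against 0.87, 1.55, 0.49 and 0.18. mid2, which organises septins, was at 2.85, and adg3 and cfh4 were at 1.503 and 1.31. The septin genes spn1, spn2, spn3 and spn4, named here after their values were seen, lay between -0.21 and 0.18. The contractile ring and septation network genes had 2 of 24 higher and 5 lower (median -0.40), with the myosin gene myp2 at -2.86.

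**Figure D4:**
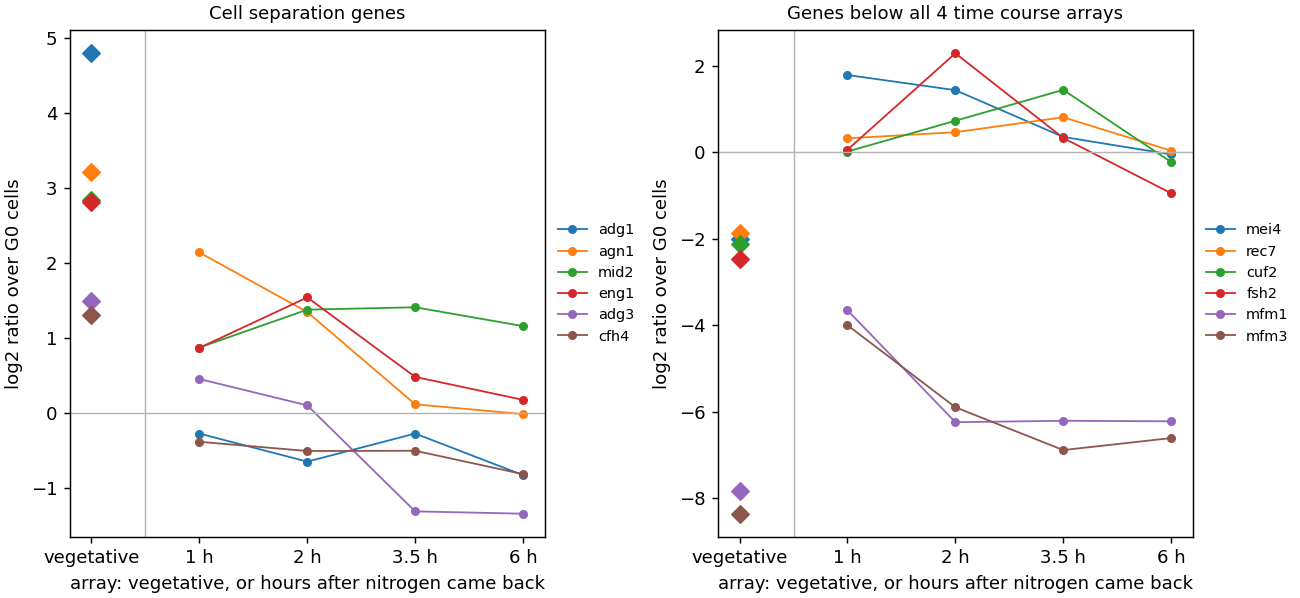
Log2 ratio over G0 cells on the vegetative array (diamonds) and at 1, 2, 3.5 and 6 h after nitrogen return (circles), for the 6 cell separation genes above all 4 times (left) and for 6 genes below all 4 times (right). For adg1 the vegetative value is 4.80 and all 4 times lie below 0.

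Cytoskeleton, wall and membrane genes were mixed. Of 35 actin and tubulin genes 6 were higher and 2 lower (median 0.09, or -0.0080 with the array centred), with the alpha-tubulin genes atb2 at 2.32 and nda2 at 1.59 and bud6, an actin nucleation cofactor gene, at -1.54. Cell wall genes had 7 of 32 higher and 6 lower (median 0.32), or 7 and 7 with the array centred, and a median of 0.20 with each block centred. gas2, a glucan elongation enzyme gene, was at 2.88, while psu2 was at -2.77 and the chitin synthase gene chs1 at -1.85. For psu2 the time course gave 7.16, 6.72, -2.12 and -3.09 at 1, 2, 3.5 and 6 h. Sterol and fatty acid synthesis had 10 of 32 higher and 1 lower (median 0.51, or 0.33 with each block centred), with erg31, a C-5 sterol desaturase gene, at 2.73 and the phospholipid methyltransferase genes cho1 and cho2 at 2.45 and 1.81. For erg31 the times gave -2.07, -0.93, 0.31 and 1.76, all below its vegetative value. Glycosylation and GPI anchor genes had 10 of 45 higher and 4 lower (median 0.32), or 6 and 4 with each block centred (median 0.17). Membrane traffic genes had 13 of 115 higher and 11 lower (median -0.09), and both shares of the traffic genes were under those of all genes (15.8% and 14.6%). The more frequent direction of the traffic genes turned to 7 higher and 15 lower with each block centred. The Rab gene ypt3 was lowest at -3.31.

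Genes of the nutrient signalling pathways sat on the lower side of G0, most within the limit. Among all genes 14.6% were lower, 15.8% were higher, and 53.9% lay above 0. Of 33 TOR pathway genes 26 were below 0, 8 were at least 2-fold lower and 1 was higher (median -0.40). The lower ones were gtr2 (-1.41), npr2 (-1.35), mip1, the gene of the TORC1 scaffold (-1.33), tsc1 (-1.29), the S6 kinase type genes sck2 and psk1 (-1.06 each), sea3 (-1.04) and tor2, the TORC1 kinase gene (-1.01). tor1, the TORC2 kinase gene, was at -0.40 and gad8, its substrate kinase, at -0.45. igo1, an endosulfine gene, was higher at 1.01. Of 17 genes of glucose sensing and the PKA pathway 6 were lower and 0 higher (median -0.69). These were git1 (-2.02), the adenylate cyclase gene cyr1 (-1.54), the catalytic subunit gene pka1 (-1.43), the G protein beta gene git5 (-1.41), rst2, a transcription factor gene that PKA represses (-1.25), and the glucose receptor gene git3 (-1.20).

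Vitamin and metal genes gave several of the highest values. Of 14 genes for thiamine, vitamin B6 and biotin 8 were higher and 0 lower (median 1.35), against 15.8% and 14.6% of all genes. The biotin transporter gene vht1 was at 4.50, against 1.21, 1.78, 2.63 and 4.73 at 1, 2, 3.5 and 6 h. The vitamin B6 transporter gene bsu1 was at 3.17 and the thiamine synthesis gene nmt1 at 3.06, against -0.69, -1.87, -0.30 and 3.80 at those times. The vegetative value of vht1 was thus close to that at 6 h, and nmt1 was above G0 only in vegetative cells and at 6 h. The thiamine-repressible phosphatase gene pho4 (2.67) and the vitamin B6 synthesis gene snz1 (2.58) followed. Of 19 iron genes 6 were higher and 0 lower (median 0.31), but 4 higher and 2 lower with each block centred (median 0.14), with the ferric reductase gene frp1 at 2.85, the siderophore transporter gene str1 at 2.45 and the ferroxidase gene fio1 at 2.23. frp1 lay between 0.15 and 0.62 on the time course arrays. The zinc transporter gene zrt1 was at 3.42 and the copper transporter gene ctr4 at 3.14, whereas 12 of 15 copper and zinc genes lay within the limit. Phosphate genes had 3 of 9 lower and 1 higher (median -0.81), and the glycerophosphodiester transporter gene tgp1 was at -3.27.

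The remaining nuclear functions had shares past the limit near or under those of all genes, which were 15.8% higher and 14.6% lower. Splicing had 9 of 67 higher and 4 lower (median 0.07, or -0.027 with the array centred and -0.089 with each block centred), with prp43, a helicase gene that also acts in ribosome assembly, at 2.40. RNA polymerase II and Mediator genes had 5 of 49 higher and 2 lower (median 0.22), or 5 and 4 with each block centred (median 0.037), with the polymerase subunit gene rpb6 at 1.84 and med15 at -1.94. DNA repair and checkpoint genes had 2 of 41 higher and 5 lower (median -0.28), with rad50, an end-processing gene, at -2.58 and the checkpoint kinase gene cds1 at -1.85. Silencing and chromatin genes had 3 of 34 higher and 5 lower (median -0.21), with swi6, the HP1 homologue gene, at 1.32 and the Argonaute gene ago1 at -1.96. The lists together covered 1641 genes, and 386 of the 753 higher and 218 of the 696 lower genes were in a list.

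Set against the time course, vegetative cells lay outside its range for few genes. Each array has G0 cells as its denominator, and the labels do not say whether 1 G0 preparation served all of them. Of the 4708 genes with a value on every array, 56 (1.19%) exceeded the highest of the 4 times by at least 2-fold and 50 (1.06%) lay at least 2-fold below the lowest. Against the 6 h array alone 144 of 4756 genes (3.03%) were higher and 121 (2.54%) lower. Of the genes above all 4 times the largest gap after adg1 was that of cbm1, at 1.60, against -2.22, -2.38, -2.33 and -1.24 at 1, 2, 3.5 and 6 h. Its vegetative value was thus above G0 and its values after nitrogen return all below it. SPCC306.11 behaved in the same way, at 1.70, against -0.90, -1.78, -1.10 and -1.16. plb4, a phospholipase gene, was nearer to G0 at -0.96 than at any time, with values between -3.65 and -2.90 there.

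The genes below all 4 times included several of meiosis and the mating program. mei4, the forkhead transcription factor gene of middle meiosis, stood at -2.00, against 1.79, 1.44, 0.36 and -0.04 at 1, 2, 3.5 and 6 h. The recombination gene rec7 stood at -1.86, against 0.33, 0.47, 0.82 and 0.04. cuf2, which encodes a meiotic transcription regulator, stood at -2.12, against 0.02, 0.73, 1.45 and -0.22. All 3 were thus near or above the G0 level after nitrogen return and more than 2-fold below it in vegetative cells, and mfm1 and mfm3 belong to the same set. met1, a gene of siroheme synthesis, was above G0 everywhere and least so in vegetative cells, at 1.58, against 5.47, 3.94, 4.34 and 3.71. The adenine deaminase gene dea2 was likewise lowest in vegetative cells at 0.72, against 3.94, 4.07, 3.24 and 2.38. Of the lists, sulfur amino acid synthesis had 3 of 18 members at least 2-fold below all 4 times and purine synthesis 2 of 14. Fermentation had 2 of 11 and M-cell genes 2 of 9, and the share of all genes was 1.06%. Meiotic recombination, a list put together after values were seen, had 2 of 9. Ribosome assembly had 4 of 111, meiosis and spore formation 4 of 151, and several other lists 1 each.

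Lower genes were frequent near the ends of chromosomes I and II, where the gene order of the RefSeq assembly was used. Among the 25 protein-coding genes nearest each of these 4 ends, 75 had a value, of which 18 (24.0%) were lower and 3 (4.00%) higher (median -0.28), against 14.6% and 15.8% of all genes. The right end of chromosome I held 8 of the 18, among them SPAC869.04 (-7.82) and SPAC869.03c (-6.85), 2 of the 4 lowest genes of the array. The first 10 genes inward from that end all lay within 2-fold. The ends of chromosome III, unlike those of I and II, held at least as many higher as lower genes. They had 5 higher and 5 lower of 23 genes at the left and 6 higher and 4 lower of 24 at the right. These end regions hold repeated gene families whose copies may share signal.

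**Figure D5:**
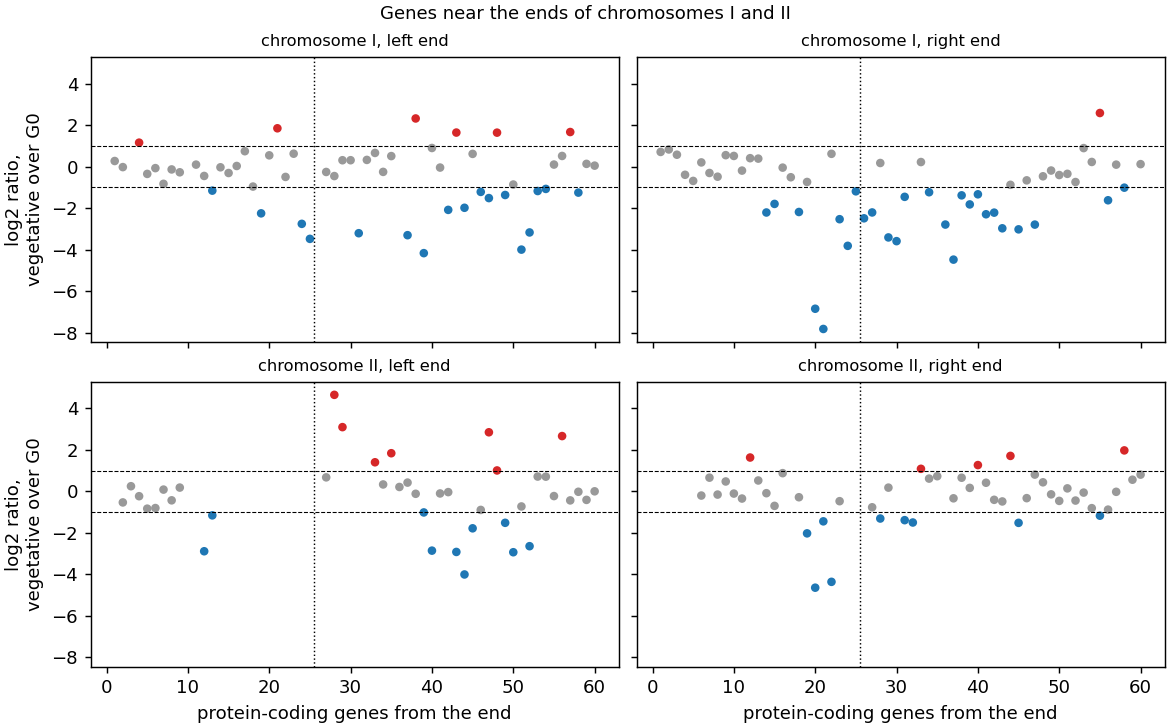
Log2 ratio of vegetative over G0 cells against the number of protein-coding genes from the end of chromosomes I and II, for genes with a value among the first 60, shown as points (red at least 2-fold higher, blue at least 2-fold lower) and the first 25 genes left of the dotted line. The right end of chromosome I shows 8 lower and 0 higher genes among its first 25.

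Lower genes had a lower neighbour more often than the share of lower genes among all, while for higher genes the share was near that of all genes. Of 749 higher genes with a next measured gene 129 (17.2%) had a neighbour that was also higher, against 15.8% of all genes, and of 683 lower genes 137 (20.1%) had one that was also lower, against 14.6%. Runs of at least 4 measured genes of the same call numbered 10, of which 8 were lower. The longest was a run of 9 lower genes that begins 34 genes from the right end of chromosome I and holds isp5 (-4.48), mmf2 (-2.79) and klf1 (-2.30), with a median of -2.22. A second run in that region holds put4, the proline permease gene (-2.21), pcm2 (-1.19), mel1 (-3.82) and hry1 (-2.53). On chromosome I uck2 and fur4, both of pyrimidine salvage, stand in a run of 4 lower genes (median -2.36). These genes were singled out by position after their values were seen. Genes known by a systematic name alone were more often lower than higher, with 172 of 757 (22.7%) lower and 74 (9.78%) higher.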

How the data were processed

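The authors deposited 1 log2 ratio per spot and array, with the base of the logarithm not stated and base 2 assumed here. Direction was taken from the dyes, per the labels' protocols. For how images were read, background was treated and arrays were normalized, the sources used here give nothing, and no spot intensities were used, so dim spots could not be filtered and the number of arrays limits the precision. The free-text description of the vegetative sample names 2 h, against its title, source and treatment protocol, which were followed.

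The table held 5184 spots in 16 blocks of 324, and 4 rows of the authors' averages that were left out. Annotation named 1 gene for 4865 spots, several for 22 and none for 297. Of the 4865, 4839 matched the RefSeq gene table by identifier, which gave names and gene order. Spots of a gene were averaged. Genes were called higher from a log2 ratio of 1 upwards and lower from -1 downwards, a limit on size with no test behind it. The counting step was tested on simulated data.

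The members, the 56 gene lists and the rules were chosen with earlier results of these data known. Lists were edited for gene role after values were seen, and 2 (meiotic recombination, pyrimidine salvage) were added then. Genes named were the 20 highest and 20 lowest, up to 5 largest members of each list and up to 3 past 2-fold against its median, fixed markers, and the 15 largest differences each way from the 6 h array and from the range of the time course. Outside that rule, cfh4, gcn2, mug64, rec12, rpp40, rpl501, rpl1202, rps7 and uap1 were named after their values were seen. So were the septins, the MBF subunit and activator genes, the H3 and H4 histone genes and the genes of the positional runs. Alternatives were centring of the array or of each block, the median or first of repeated spots, genes with values on all 5 arrays, a natural logarithm and other fold limits. A planned search of promoters for motifs was not run, and no sequences were used here. Python 3.11.15, numpy 2.4.6, pandas 2.3.3 and matplotlib 3.10.9 were used.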

Additional observations from a re-analysis of the deposited data

How the results depend on the processing

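The counts of 753 higher and 696 lower genes stayed within 1.5 times under centring of the array (655 and 777), centring of each block (628 and 776), the median or first of repeated spots (753 and 696 each), genes with values on all 5 arrays (745 and 691), and without the far nda3 spot (753 and 696), an alternative chosen after seeing the data. Read as natural logarithms, the values gave 1143 higher and 1028 lower genes. A 1.5-fold limit gave 1348 and 1163, and a 4-fold limit 140 and 211, by construction of the limit. Among 99 medians and single ratios, 16 moved by more than the spread between repeated spots with each block centred, 1 with the first of repeated spots and 3 of the 98 that could be computed with genes on all 5 arrays (with each block centred, for example, -1.46 for proteases and vacuolar hydrolases and 0.77 for mitochondrial and ER chaperones, and with genes on all 5 arrays -1.86 for meiotic recombination and -1.97 for pyrimidine salvage). Medians of at least 2-fold and the single ratios kept their sign. The near-zero list medians of DNA replication (0.086 to -0.0085), actin and tubulin (0.086 to -0.0080), splicing (0.067 to -0.027) and copper and zinc (0.043 to -0.051) changed sign when the array was centred, and that of meiosis and spore formation (0.094 to -0.069) with each block centred. A list count given as 0 lower became 1 lower for large subunit ribosomal proteins with each block centred and for translation factors with either centring. For iron uptake it became 1 lower with the array centred and 2 with each block centred, and for DNA replication 2 with either centring. Not run was the promoter motif search. No paired analysis was possible because each condition had 1 array. With 1 array, no biological or labelling error can be given, the spot error does not cover it, and dim spots could not be told from bright ones.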
